A study of Mus musculus with 6 samples.

Results

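The transfer RNA (tRNA) genes for glycine (Gly), cysteine (Cys), phenylalanine (Phe) and tryptophan (Trp) were followed through 6 libraries that recorded which RNAs were held by the mouse protein Gtsf1, also called Asterix. The genes were taken by name alone, as every tRNA feature whose name carries one of the 4 amino acids. This gave 121 of the 869 tRNA genes with any read, of which 42 were Gly, 64 Cys, 7 Phe and 8 Trp genes. Of the 121, 16 (11 Gly and 5 Cys) carry no anticodon in their name. The others fall into 7 isoacceptors, which are groups of tRNAs that share an amino acid and an anticodon. Gly-GCC has 15 genes, Gly-TCC 8, Gly-CCC 7 and Gly-ACC 1, while Cys-GCA has 59, Phe-GAA 7 and Trp-CCA 8.

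The method was eCLIP, in which ultraviolet light joins RNA to protein in living cells before the protein is purified and its RNA sequenced. All 6 libraries came from P19 cells, a mouse embryonal carcinoma line, that were transiently transfected with mouse Gtsf1 with a TEV-Strep tag at its C terminus, driven by the EF-1alpha promoter in the vector pEF. Cells crosslinked with 254 nm light gave 2 pull-downs, made by capturing the tag on MagStrep beads, and 2 inputs, which were lysate set aside; these are called UV pull-downs and UV inputs below. Cells that were not crosslinked gave 1 pull-down and 1 input, called no-UV pull-down and no-UV input. Every group thus carried the same overexpressed tagged protein, the no-UV pull-down being the same capture without light, and a capture without the tagged protein was not analysed here. Nothing in the labels says that the replicates came from separate cultures, so the tests measure only the spread between these libraries, which may be technical.

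A tRNA reads a codon of the messenger RNA with its anticodon and carries the matching amino acid, which a dedicated aminoacyl-tRNA synthetase attaches to its 3′ end. tRNA genes are transcribed by RNA polymerase III from promoter elements inside the gene, and the transcripts are trimmed at both ends, given a 3′ CCA and modified at many bases. Most isoacceptors are made by many gene copies, several with the same mature sequence, so that a short read often cannot be given to a single gene. In the gene names, the first number after the anticodon marks the isodecoder, the genes meant to share a mature sequence, and the last number marks the gene copy. Gtsf1 is a short protein with zinc fingers that serves the piRNA pathway, the germline defence that silences transposons.

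The libraries held between 13168593 and 18418166 reads, and 1 read was worth 0.0543 to 0.0759 RPM, the reads per feature scaled to a common library size. All tRNA genes together took 1047 and 1050 RPM in the UV inputs, 3375 and 9033 RPM in the UV pull-downs, 1135 RPM in the no-UV input and 915 RPM in the no-UV pull-down. UV pull-down 2 thus held 2.68 times the tRNA level of pull-down 1. Nearly all tRNAs tested below were higher in pull-down 2 too, most of them by a smaller factor. The pre-mRNA feature of the transfected gene, Gtsf1, was at 46.9 and 46.3 RPM in the UV inputs, 102 and 210.3 RPM in the UV pull-downs, 49.2 RPM in the no-UV input and 40.6 RPM in the no-UV pull-down, which edgeR called higher in the UV pull-downs by 1.84 ± 0.36 on the log2 scale (adjusted p = 0.0249). The exons of the 11 P19 marker genes summed to 64.3 to 125 RPM over the libraries, led by the pluripotency factor Pou5f1 at 23.2 to 35.4 RPM, while Nanog reached at most 0.687 RPM, Zfp42 at most 0.158 RPM, and Dppa5a was at 0 in all libraries but 1. The 4 endoderm markers, all with reads, summed to 0.367 and 0.676 RPM in the UV inputs, 3.94 and 4.11 RPM in the UV pull-downs, 0.0707 RPM in the no-UV input and 2.61 RPM in the no-UV pull-down. Their sum was thus higher in each pull-down than in its input, as most of the tRNAs below were, and its part in the results was not tested. Gata6 made up most of the sum and, like Gata4, was higher in each pull-down, while Sox17 was at 0 in both no-UV libraries and Afp had reads in UV pull-down 1 alone. Neuron markers summed to 2.57 to 7.64 RPM and fibroblast markers to 0.283 to 1.07 RPM.

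The 4 amino acids together made up a larger part of the tRNA reads in the pull-downs than in the inputs. Their genes held 6.19% (95% Wilson interval 5.85% to 6.55%) and 5.13% (4.83% to 5.45%) of the tRNA reads of the UV inputs, against 10.2% (9.95% to 10.5%) and 8.29% (8.14% to 8.43%) in the UV pull-downs. Without crosslinking the share went the same way, from 7.02% (6.64% to 7.43%) in the input to 12.8% (12.2% to 13.4%) in the pull-down. These intervals cover counting error only. In RPM the sum was 64.8 and 53.9 in the UV inputs, 344 and 748 in the UV pull-downs, 79.7 in the no-UV input and 117 in the no-UV pull-down. Glycine supplied between 91.4% and 97.8% of these reads in every library.

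Each of the 4 amino acid sums rose in the UV pull-downs by about an order of magnitude. Gly tRNAs stood at 60.1 and 51.6 RPM in the UV inputs and at 319 and 696 RPM in the pull-downs, a mean of 507 ± 267 RPM against 55.8 ± 6.02 RPM (SD, n = 2) and a 9.09-fold difference. edgeR's quasi-likelihood test gave Gly a log2 ratio of 3.28 ± 0.40 (SE) with an adjusted p of 0.00301. Cys tRNAs went from 2.86 and 1.47 RPM to 15.1 and 31.2 RPM, 10.7-fold, with a log2 ratio of 3.52 ± 0.45 and an adjusted p of 0.00388. Phe tRNAs went from 0.623 and 0.451 RPM to 4.64 and 9.88 RPM, 13.5-fold, with a log2 ratio of 3.85 ± 0.49 and an adjusted p of 0.00368. Trp tRNAs went from 1.26 and 0.434 RPM to 6.14 and 11.2 RPM, 10.3-fold, with a log2 ratio of 3.46 ± 0.47 and an adjusted p of 0.00509. The pull-downs lay above the inputs for all 4, with pull-down 2 the higher each time. Of all features tested beside these sums, 6% were called higher. The RNA was bulk RNA from a transfected culture. In the level of a tRNA within a library, the number of cells that hold it and its amount per cell cannot be told apart. Without pull-down 2 the Gly, Cys and Phe ratios fell to 2.59, 2.88 and 3.19, and without UV input 1 the Trp ratio was 4.38.

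All 6 isoacceptors with enough reads to test (on average 1 RPM or more in the UV libraries) rose in the UV pull-downs, where 6.06% of all features of that table were called higher. The filter averages pull-downs and inputs, and Phe-GAA and Trp-CCA, like the Phe and Trp sums, had a mean input under 1 RPM, so they were tested only because their pull-downs were high and their tests are a description. The other 4 isoacceptors had a mean input of 1 RPM or more. Gly-TCC, which reads the GGA and GGG codons, was at 21.3 and 16.5 RPM in the UV inputs, 162 and 352 RPM in the UV pull-downs, 23.2 RPM in the no-UV input and 45.1 RPM in the no-UV pull-down. Its UV means, 257 ± 134 RPM against 18.9 ± 3.35 RPM (SD, n = 2), differed 13.6-fold, with a log2 ratio of 3.86 ± 0.42 and an adjusted p of 0.00176. Gly-GCC, which pairs with GGC and GGU codons, was at 30.6 and 25.4 RPM in the UV inputs, 107 and 219 RPM in the UV pull-downs, 41.4 RPM in the no-UV input and 50.2 RPM in the no-UV pull-down. Its means of 163 ± 79.4 RPM and 28.0 ± 3.67 RPM differed 5.82-fold, with a log2 ratio of 2.64 ± 0.37 and an adjusted p of 0.00582. Gly-GCC thus had the smallest ratio of the 6 isoacceptors and Gly-TCC, level with Phe-GAA, the largest. Gly-CCC, the isoacceptor for GGG codons, was at 7.92 and 9.43 RPM in the UV inputs, 49.5 and 124 RPM in the UV pull-downs, 13.2 RPM in the no-UV input and 11.8 RPM in the no-UV pull-down. Its UV pull-downs lay 10.0-fold above its UV inputs, with a log2 ratio of 3.42 ± 0.46 and an adjusted p of 0.00487. Gly-ACC, 1 gene, held 1 to 2.37 reads in the UV inputs, 2.34 and 7.31 reads in the pull-downs and at most 2.58 reads in the others, too few to test. Leaving out UV pull-down 2 lowered the log2 ratios to 3.18 for Gly-TCC, 2.01 for Gly-GCC, 2.59 for Gly-CCC, 2.88 for Cys-GCA and 3.19 for Phe-GAA, each by more than 1.5 times in fold and each still called by edgeR.

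**Figure D1:**
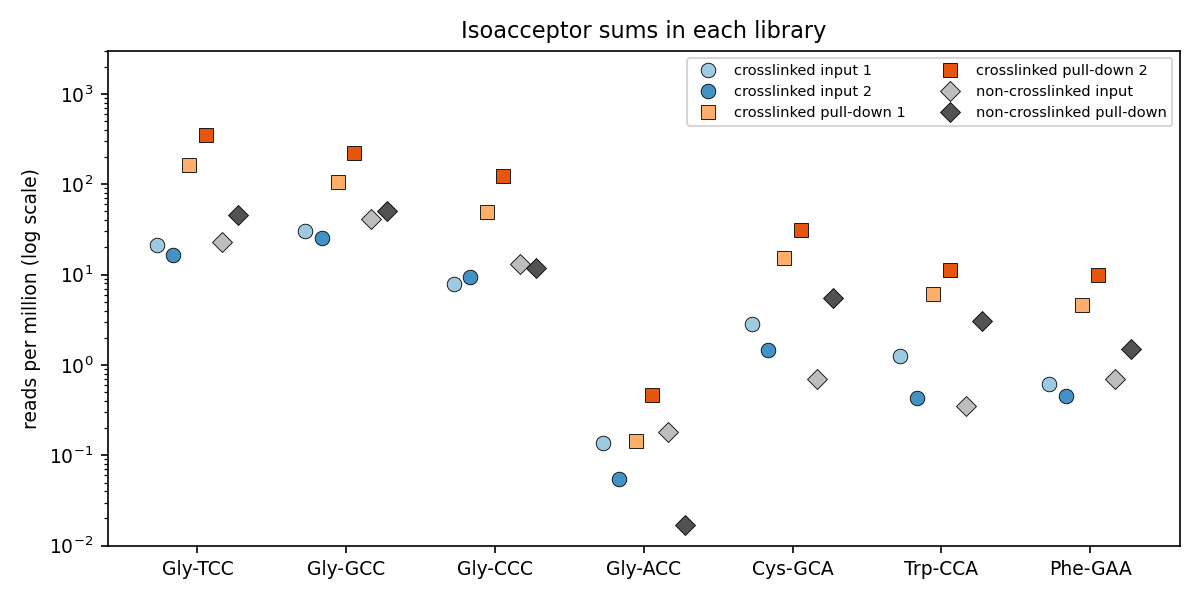
RPM (log scale) of the 7 isoacceptors, 1 point per library: circles are the UV inputs, squares the UV pull-downs and diamonds the no-UV libraries. Both squares lie above both circles for every isoacceptor, while the 2 diamonds of Gly-CCC (13.2 and 11.8 RPM) and Gly-GCC (41.4 and 50.2 RPM) lie close together.

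The order of the Gly isoacceptors changed between inputs and pull-downs. Per kilobase of the median RefSeq gene length (71 or 72 bases for these 3), Gly-GCC stood above Gly-TCC in both UV inputs, at 431 and 358 against 295 and 229 RPM per kilobase. In both UV pull-downs the order was the opposite, with Gly-TCC at 2252 and 4888 and Gly-GCC at 1504 and 3086 RPM per kilobase. Both no-UV libraries kept Gly-GCC first, at 583 against 322 in the input and 707 against 626 in the pull-down. In each of the 6 libraries Gly-CCC stood below these and above Cys-GCA, and Gly-ACC came last. Phe-GAA and Trp-CCA traded the places between, Phe-GAA being ahead only in UV input 2 and the no-UV input, where each held few reads.

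The same shift appeared as shares of the Gly reads. Gly-TCC made up 35.4% and 32.0% of the Gly reads in the UV inputs and 50.9% and 50.6% in the UV pull-downs. Gly-GCC made up 50.9% and 49.3% of the inputs and 33.5% and 31.5% of the pull-downs. Reads of Gly-TCC per read of Gly-GCC were 0.695 and 0.650 in the inputs against 1.52 and 1.61 in the pull-downs, so that the groups were far apart and the replicates of each close, a difference that was not tested on its own. Without crosslinking the ratio was 0.560 in the input and 0.898 in the pull-down, a move in the same direction that did not reach the UV values. There, Gly-TCC went from 29.7% (27.1% to 32.5%) to 42.1% (39.5% to 44.7%) of the Gly reads and Gly-GCC from 53.1% (50.2% to 56.1%) to 46.9% (44.3% to 49.5%). Gly-CCC showed no such separation, with 13.2% and 18.3% of the inputs, 15.5% and 17.8% of the UV pull-downs, 16.9% (14.8% to 19.2%) of the no-UV input and 11% (9.52% to 12.8%) of the no-UV pull-down.

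**Figure D2:**
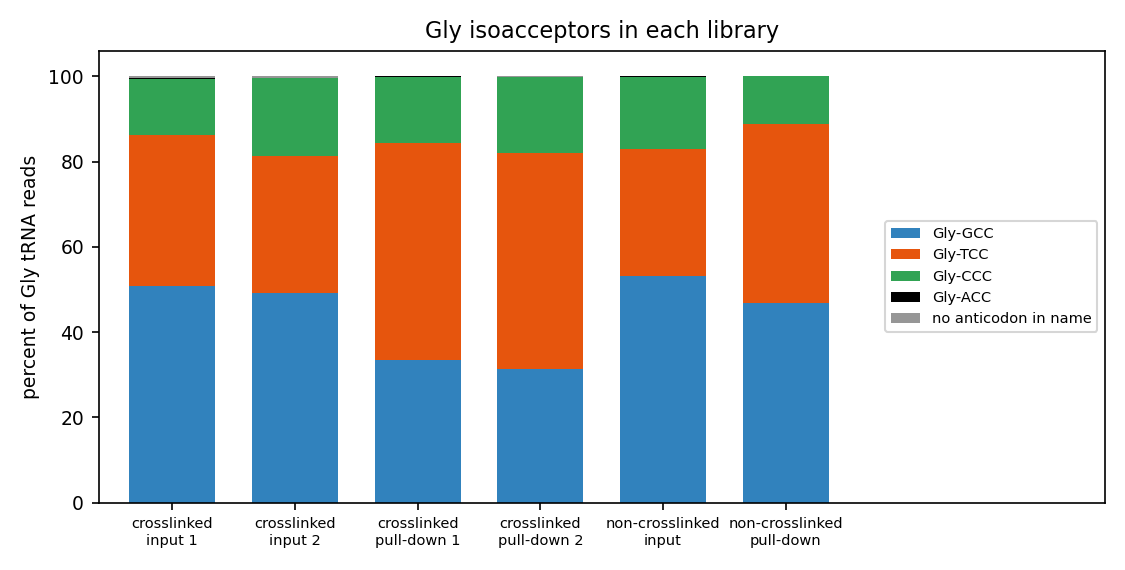
Share of the Gly tRNA reads (percent) held by each Gly isoacceptor, 1 stacked bar per library. The orange part, Gly-TCC, is 50.9% and 50.6% in the UV pull-downs and between 29.7% and 42.1% in the other 4 libraries.

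Set against all tRNA reads, Gly-TCC was the isoacceptor of the 4 amino acids whose share was called higher. The question was whether a tRNA took a larger part of the tRNA reads in the pull-down, and 44.2% of the 52 isoacceptors tested had a share called in either direction (20 higher, 3 lower). The share of Gly-TCC rose by 1.27 ± 0.31 on the log2 scale (edgeR, adjusted p = 0.000323). The others were not called, with log2 changes in share of 0.78 ± 0.39 for Gly-CCC (adjusted p = 0.0838), 0.07 ± 0.31 for Gly-GCC (0.867), 1.28 ± 0.77 for Phe-GAA (0.146), 0.94 ± 0.60 for Cys-GCA (0.174) and 0.92 ± 0.73 for Trp-CCA (0.258). The call for Gly-TCC was lost without UV pull-down 1 (1.11, adjusted p = 0.144). Gly-CCC was called without UV input 2 (0.91, adjusted p = 0.0314) and by DESeq2 (adjusted p = 0.0276), and Cys-GCA without UV input 1 (adjusted p = 0.0375). With TMM factors, which set the typical isoacceptor to no change, Gly-TCC was at 0.02 (adjusted p = 0.949), Gly-GCC was called lower at -1.20 (adjusted p = 0.00755), and the split over all isoacceptors was 11 higher and 11 lower.

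In the order of all tested isoacceptors by pull-down over input, those of the 4 amino acids lay in the middle and below. The median log2 ratio was 3.92 over all 52 and 4.03 over the 46 of other amino acids, which ranged from 1.34 to 11.4. Counted from the highest ratio, Gly-TCC ranked 27, Phe-GAA 29, Cys-GCA 33, Trp-CCA 35, Gly-CCC 36 and Gly-GCC 44. The SEs of 0.37 to 0.49 overlap between neighbours in this order.

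**Figure D3:**
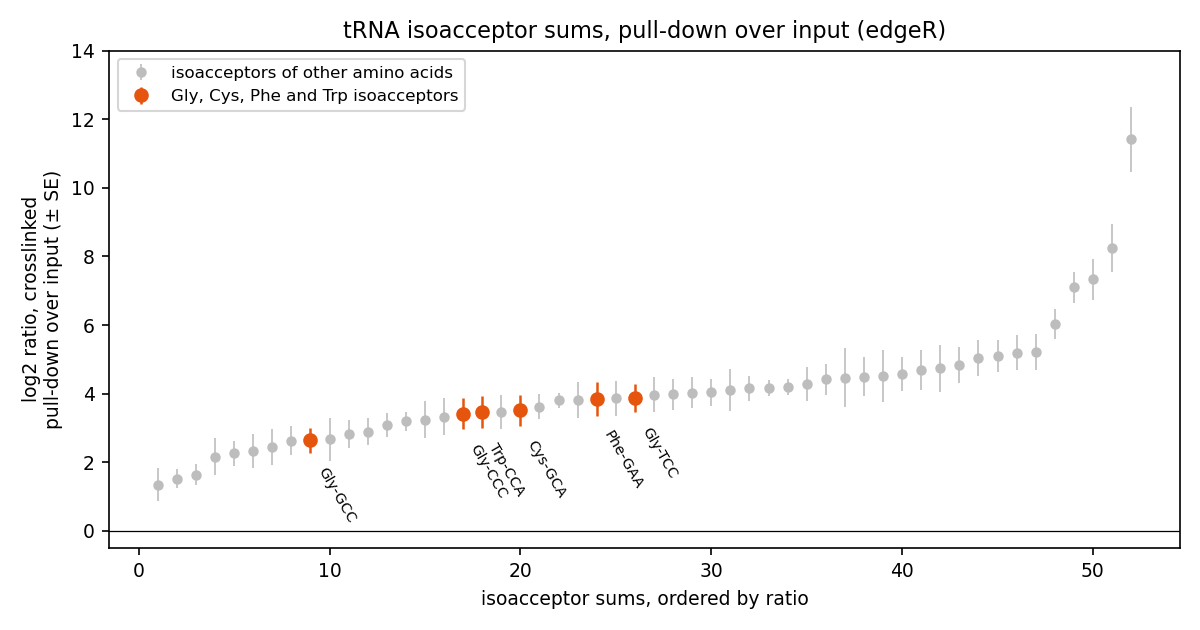
edgeR log2 ratio of UV pull-downs over UV inputs, with its SE, for the 52 tested isoacceptor sums ordered by ratio. The 6 orange points, from Gly-GCC at 2.64 to Gly-TCC at 3.86, all lie below the median of 3.92.

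Single genes were tested next, within the whole table of 39872 features, of which 6.41% were called higher. Of the 121 genes, 35 had enough reads to test (28 Gly, 6 Cys, 1 Trp and no Phe gene), and 34 of these were called higher, none lower. Over every feature tested, the log2 ratios had a median of -0.21. With TMM factors the median of all features was -0.00434. The lowest mean among tested members was 1.12 RPM and the highest among untested ones 0.858 RPM. Of the 35, 10 (4 Gly, 5 Cys and 1 Trp) had a mean input under 1 RPM and so passed the filter only through the pull-downs, where they had to differ, so the count over the 35, their median log2 ratio of 3.57 and the adjusted p of these 10 are a description. Of the 25 with a mean input of 1 RPM or more (24 Gly and 1 Cys), 24 were called higher, where 2.17% of all tested features with such an input were. The median log2 ratio of the 25 was 2.83, against -0.23 for all tested features with such an input. At most 3 reads in both inputs were seen for 6 of the 10 (1 Gly and 5 Cys). Both pull-downs lay above both inputs for all of the 25, where 5.77% of the features with such an input did so. The same held for 35 of the 35 tested genes, where 10.8% of all tested features did so, a count that the filter fixed in part, and for 99 of the 121 genes, where 11.8% of all features with any read did so. Copies of one isodecoder can share fractions of the same reads, so the genes in all these counts, the 99 included, are not separate observations. Of the 121, 65 (54 Cys, 11 Gly) stayed under 3 reads in every library, and 51 under 1 read. The genes with no anticodon in their name held at most 5.83 reads in total for Gly, in UV pull-down 2, and at most 2.17 for Cys. Copies share reads: 108 genes held fractions of reads, and 54 had values identical to those of another gene in all 6 libraries, in 13 groups. Sums over isodecoders were therefore used below, a choice made after the values were seen. Of 18 isodecoders tested, 17 were called higher, against 6.2% of the features of that table. Only 8 of the 18 had a mean input of 1 RPM or more, of which 7 were called, and the tests of the other 10 (Gly-TCC-2, Gly-CCC-5, Gly-GCC-3, Gly-GCC-6, Cys-GCA-1, Cys-GCA-2, Cys-GCA-3, Phe-GAA-1, Trp-CCA-4 and Trp-CCA-5) are a description for the same reason. Without UV pull-down 2, single ratios were followed for 13 of the 28 genes and 9 of the 13 isodecoders then tested. Of these, 11 genes and 6 isodecoders fell by more than 1.5 times, all in the same direction as before.

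Gly-TCC was nearly all Gly-TCC-1, a set of 7 copies that held 93.0% to 99.4% of the isoacceptor in every library. Gly-TCC-1 was at 20.8 and 16.3 RPM in the UV inputs, 158 and 347 RPM in the UV pull-downs, 23.0 RPM in the no-UV input and 41.9 RPM in the no-UV pull-down, with a log2 ratio of 3.86 ± 0.42 (adjusted p = 0.00200). Its copies were evenly read. The gene Gly-TCC-1-2 held 2.91 and 2.32 RPM in the UV inputs and 23.1 and 51.4 RPM in the UV pull-downs, and Gly-TCC-1-3 and Gly-TCC-1-4 had the same values in these libraries. All 3 had a log2 ratio of 3.92 ± 0.44 and an adjusted p of 0.00234.

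Gly-TCC-2-1, the other Gly-TCC isodecoder with 1 gene, differed less between the pull-downs. It held 8.12 and 4.62 reads in the UV inputs, 67.6 and 84.2 reads in the UV pull-downs, 1.88 reads in the no-UV input and 41.8 reads in the no-UV pull-down. Its log2 ratio of 3.78 ± 0.28 (adjusted p = 0.000470) was close to that of Gly-TCC-1, but its level in pull-down 2 was 1.27 times that in pull-down 1, against 2.2 times for Gly-TCC-1. Its share of Gly-TCC reads was 0.572% in the no-UV input and 7.05% in the no-UV pull-down.

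Gly-CCC split into isodecoders with unlike ratios. Gly-CCC-1, 2 copies, was at 4.75 and 5.86 RPM in the UV inputs, 35.8 and 92.3 RPM in the UV pull-downs, 2.12 RPM in the no-UV input and 6.53 RPM in the no-UV pull-down, with a log2 ratio of 3.68 ± 0.48 (adjusted p = 0.00456). Its genes Gly-CCC-1-1 and Gly-CCC-1-2 were nearly equal, both at 2.38 and 2.93 RPM in the UV inputs. Gly-CCC-2, 2 copies, was at 1.88 and 2.14 RPM in the UV inputs, 6.97 and 18.7 RPM in the UV pull-downs, 6.78 RPM in the no-UV input and 2.31 RPM in the no-UV pull-down. Its log2 ratio of UV pull-down to UV input was 2.77 ± 0.50 (adjusted p = 0.0182), yet it was lower in the no-UV pull-down than in its input. Gly-CCC-3-1 showed the same pattern, with 1.23 and 1.31 RPM in the UV inputs, 3.68 and 9.28 RPM in the UV pull-downs, 4.17 RPM in the no-UV input and 1.12 RPM in the no-UV pull-down, and a log2 ratio of 2.45 ± 0.49 (adjusted p = 0.0280).

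Gly-CCC-5-1 had very few input reads and entered the test only through its pull-downs. It held 0.649 and 1.10 reads in the UV inputs, 32.3 and 37.4 reads in the UV pull-downs, 1.25 reads in the no-UV input and 21.7 reads in the no-UV pull-down. The ratio of its pooled pull-down to input levels was 39.3, with a 95% interval of 10.5 to 331 from counting error, and the edgeR log2 ratio, 5.19 ± 0.35, rests on those few input reads. Both UV pull-downs and the no-UV one stood well above all 3 inputs.

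Gly-GCC was carried mainly by Gly-GCC-2, with 8 copies, and Gly-GCC-1, with 3. Gly-GCC-2 was at 19.3 and 13.9 RPM in the UV inputs, 57.1 and 115 RPM in the UV pull-downs, 31.8 RPM in the no-UV input and 27.4 RPM in the no-UV pull-down, with a log2 ratio of 2.47 ± 0.37 (adjusted p = 0.00884). Gly-GCC-1 was at 7.57 and 8.75 RPM in the UV inputs, 36.7 and 86.1 RPM in the UV pull-downs, 6.17 RPM in the no-UV input and 15.8 RPM in the no-UV pull-down, with a log2 ratio of 3.01 ± 0.42 (adjusted p = 0.00643). Its gene Gly-GCC-1-1 had a log2 ratio of 3.07 ± 0.44 (adjusted p = 0.00707), and Gly-GCC-1-2 and Gly-GCC-1-3, identical in every library, had 2.96 ± 0.44.

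The remaining Gly-GCC isodecoders were single genes at lower levels. Gly-GCC-4-1 had the smallest log2 ratio of the tested Gly genes, 1.86 ± 0.33 (adjusted p = 0.0173, and 0.0501 with the replicate number as a block). It was at 3.05 and 1.84 RPM in the UV inputs, 6.26 and 10.3 RPM in the UV pull-downs, and 3.17 and 3.18 RPM in the no-UV input and pull-down, which were nearly equal. Gly-GCC-3 rose by 2.95 ± 0.28 (adjusted p = 0.00103), from 0.53 and 0.65 RPM to 3.59 and 4.99 RPM. Gly-GCC-6-1 held 3 and 5.25 reads in the UV inputs, 44.4 and 37.9 reads in the UV pull-downs, 0.0667 read in the no-UV input and 21.2 reads in the no-UV pull-down, with a log2 ratio of 3.57 ± 0.26 (adjusted p = 0.000467). Of the 35 tested genes, this was the exception to the gap between the replicates, with a level in pull-down 2 of 0.87 times that in pull-down 1, while the other 34 were higher in pull-down 2.

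The 8 copies of Gly-GCC-2 were not read evenly in every library. Copies 4, 5 and 7, picked out after their values were seen, held a mean of 60.3 reads in UV input 1 and 88.0 in the no-UV input, where the other 5 copies held 31.1 and 37.1. In UV input 2 the means were 34.0 and 30.8 reads. In the pull-downs the copies were level, at 115 and 115 reads in UV pull-down 1, 231 and 226 in pull-down 2, and 45.6 and 44.9 in the no-UV pull-down. The log2 ratio of copies 4, 5 and 7 was accordingly 2.14 ± 0.42 (adjusted p = 0.0273, and 0.0701 at a ratio of 2.09 with the replicate number as a block), while that of the other copies was 2.71 to 2.73. These copies and Gly-CCC-2-1, Gly-CCC-2-2 and Gly-CCC-3-1 were the 6 tested Gly genes with a lower level in the no-UV pull-down than in its input.

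**Figure D4:**
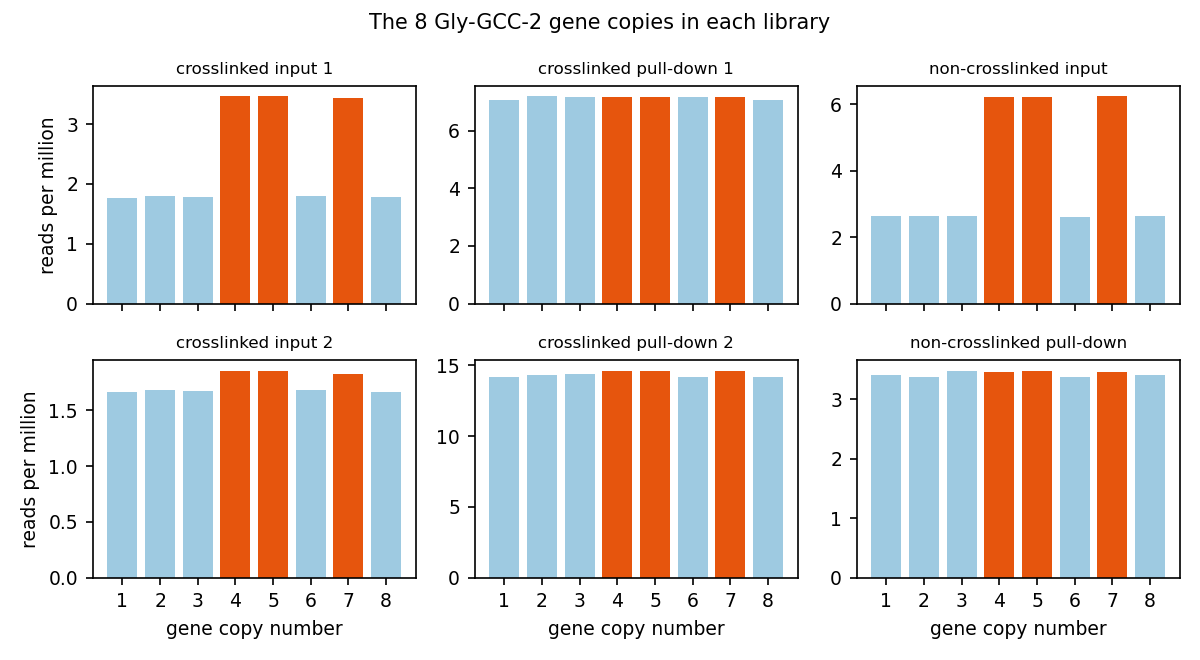
RPM of the 8 Gly-GCC-2 gene copies in each library, with copies 4, 5 and 7 in orange; each panel has its own vertical scale starting at 0. The orange bars stand above the blue ones in UV input 1 (mean 60.3 against 31.1 reads) and in the no-UV input (88.0 against 37.1), and are level with them in the 3 pull-downs.

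Cys-GCA, the only Cys isoacceptor here, has many genes and few reads. Its sum was at 2.86 and 1.46 RPM in the UV inputs, 15.1 and 31.1 RPM in the UV pull-downs, 0.707 RPM in the no-UV input and 5.46 RPM in the no-UV pull-down, with a log2 ratio of UV pull-down to UV input of 3.51 ± 0.45 (adjusted p = 0.00396). RefSeq (GRCm38.p6) lists 56 Cys-GCA genes, 48 of them on chromosome 6. The isodecoder with the most copies, Cys-GCA-4 with 29, had few reads for its size, with 4.27 and 1.57 reads in the UV inputs, 7.29 and 10.9 in the UV pull-downs, 0.763 in the no-UV input and 2.04 in the no-UV pull-down over all copies. Cys-GCA-3, with 4 copies, led the pull-downs. It was at 0.601 and 0.501 RPM in the UV inputs, 7.98 and 14.5 RPM in the UV pull-downs, 0.0808 RPM in the no-UV input and 2.90 RPM in the no-UV pull-down, with a log2 ratio of 4.48 ± 0.41 (adjusted p = 0.000870). Its genes Cys-GCA-3-3 and Cys-GCA-3-4 had log2 ratios of 4.37 ± 0.53 and 4.69 ± 0.60.

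Cys-GCA-1 and Cys-GCA-2 rose as well. Cys-GCA-1, 2 copies, held 2.76 and 3.77 reads in the UV inputs, 40.2 and 62.6 in the UV pull-downs, 0.571 in the no-UV input and 14.3 in the no-UV pull-down, with a log2 ratio of 4.09 ± 0.43 (adjusted p = 0.00176). Cys-GCA-2-1 held 1.33 and 1.86 reads in the UV inputs and 25.3 and 47.9 in the UV pull-downs, a pooled ratio of 27.3 with a 95% counting interval of 8.99 to 136, and a log2 ratio of 4.74 ± 0.64 (adjusted p = 0.00551).

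Cys-GCA-5-1 was the tested gene that was not called. It held 26.1 and 10.0 reads in the UV inputs, 24.2 and 103 in the UV pull-downs, 7.03 in the no-UV input and 4.07 in the no-UV pull-down. Its log2 ratio was 2.07 ± 0.77 (adjusted p = 0.179), 0.64 (adjusted p = 0.622) without UV pull-down 2, 2.94 without UV input 1 (not called) and 2.79 (adjusted p = 0.0013) without pull-down 1. Its share of Cys-GCA reads was 52.2% and 37.2% in the UV inputs against 9.95% and 21.0% in the pull-downs, while that of Cys-GCA-3 was 21.0% and 34.2% against 53.0% and 46.7%. The most read Cys isodecoder was thus Cys-GCA-5 in both UV inputs and Cys-GCA-3 in both UV pull-downs. In UV input 2 the lead was within counting error, the intervals being 21.5% to 55.8% for Cys-GCA-5 and 18.6% to 52.2% for Cys-GCA-3. In the no-UV pair, Cys-GCA-5 went from 70.3% (39.7% to 89.2%) to 5.66% (2.18% to 13.4%).

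Phe-GAA, the acceptor of phenylalanine known for the wybutosine base beside its anticodon, was read at 0.623 and 0.451 RPM in the UV inputs, 4.64 and 9.88 RPM in the UV pull-downs, 0.707 RPM in the no-UV input and 1.51 RPM in the no-UV pull-down. Its log2 ratio of 3.85 ± 0.49 (adjusted p = 0.00377) was close to that of Gly-TCC. Phe-GAA-1, with 5 copies, made up 73.7% to 85% of it in each library and rose by 3.84 ± 0.56 (adjusted p = 0.00777), from 8.29 and 6.81 reads to 55.1 and 127 reads. No single Phe gene passed the filter. Phe-GAA-1-1, Phe-GAA-1-4 and Phe-GAA-1-5 had the same values in every library, 1.26 and 1.16 reads in the UV inputs and 11.2 and 25.6 in the UV pull-downs.

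Trp-CCA, which reads the only tryptophan codon, was at 1.26 and 0.434 RPM in the UV inputs, 6.14 and 11.2 RPM in the UV pull-downs, 0.353 RPM in the no-UV input and 3.04 RPM in the no-UV pull-down, and rose by 3.46 ± 0.47 (adjusted p = 0.00522). Trp-CCA-5-1, the only Trp gene tested, held 7.12 and 1.29 reads in the UV inputs, 26.2 and 60.9 in the UV pull-downs, 2 in the no-UV input and 7.14 in the no-UV pull-down. Its log2 ratio was 3.66 ± 0.73 (adjusted p = 0.0286), and 5.54 without UV input 1 or 2.85 without UV input 2, so its size depended on which input was used. Trp-CCA-4, 2 copies, rose by 3.52 ± 0.43 (adjusted p = 0.00313), from 4.29 and 1.81 reads to 23.6 and 36.0 reads. Trp-CCA-2-1, not tested, held 1.90 and 1.43 reads in the UV inputs, 14.9 and 16.7 in the UV pull-downs, 0.286 in the no-UV input and 13.1 in the no-UV pull-down, nearly as many as with crosslinking.

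The no-UV pair showed which tRNAs were recovered on the beads without light. This pair has no replicate, so its ratios carry only 95% counting intervals. Pull-down over input was 8.60 (3.39 to 27.9) for Trp-CCA, 7.74 (3.97 to 16.8) for Cys-GCA, 2.15 (0.960 to 5.14) for Phe-GAA, 1.95 (1.70 to 2.23) for Gly-TCC, 1.21 (1.08 to 1.36) for Gly-GCC and 0.901 (0.724 to 1.12) for Gly-CCC. The intervals of Trp-CCA and Cys-GCA lay above those of all 3 Gly isoacceptors, and those of Phe-GAA and Gly-CCC included 1. However, Trp-CCA and Cys-GCA held only 5 and 10 reads in the no-UV input, at 0.353 and 0.707 RPM. Their UV inputs were at 1.26 and 0.434 RPM for Trp-CCA and 2.86 and 1.46 RPM for Cys-GCA. The counting intervals do not cover such a spread between inputs, so the separation from the Gly isoacceptors is uncertain. Of the 25 genes with a mean UV input of 1 RPM or more, 18 were higher in the no-UV pull-down than in its input, where 11.4% of all tested features with such an input were. Over all 35 tested genes the count was 28, where 15.7% of all tested features were, and it includes the 10 that passed the filter through their UV pull-downs. Copies of one isodecoder can share reads, so neither count is of separate observations. The 18 include 5 copies of Gly-GCC-2, whose sum went the other way, with a ratio of 0.862 (0.749 to 0.992). They also include Gly-GCC-4-1, which was nearly level at 3.17 and 3.18 RPM.

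Whether the ratio was larger with crosslinking than without was tested as an interaction, in which the single no-UV libraries were assumed to vary like the crosslinked ones. edgeR called 0 features in the whole table after adjustment (0%), so no isoacceptor was called. At an unadjusted p under 0.05, 3 of the 6 had a larger UV ratio, where 12.6% of all features did. These were the Gly isoacceptors, with differences in log2 ratio of 3.46 ± 0.78 for Gly-CCC, 2.80 ± 0.67 for Gly-TCC and 2.26 ± 0.62 for Gly-GCC, each with an adjusted p of 0.300. Phe-GAA was at 2.65 ± 1.26, Cys-GCA at 0.47 ± 1.06 and Trp-CCA at 0.28 ± 1.46, with adjusted p of 0.367 to 0.937. DESeq2 called Gly-CCC (adjusted p = 0.00707) and Gly-TCC (adjusted p = 0.0399) of the 6, with 4 under an unadjusted p of 0.05 and 0.0475% of all features called higher, and limma called 0, with 4 under an unadjusted p of 0.05. Relative to the tRNA reads of each library, a scaling added after the values were seen, the differences were 0.62 for Gly-CCC and -0.52 for Gly-GCC, and 0 of the 6 passed an unadjusted p of 0.05.

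Within Gly-CCC and Gly-GCC the isodecoders differed in how they behaved without light. Gly-CCC-2 and Gly-CCC-3 had the largest positive differences between crosslinked and no-UV ratios, 4.24 ± 0.91 and 4.21 ± 0.95. Gly-GCC-6 had a difference in the opposite direction, -4.15 ± 1.53 (edgeR, adjusted p = 0.352), which missed the unadjusted threshold. That value rests on 0.0667 read in the no-UV input, rounded to 0 for the test, against 21.2 reads in the no-UV pull-down. Its size is therefore poorly determined, and its sign turned with limma. Gly-TCC-1 was at 2.90 ± 0.68, Gly-GCC-2 at 2.58 ± 0.64 and Gly-GCC-4 at 1.75 ± 0.62, and these 5 had adjusted p of 0.302 to 0.311. Gly-GCC-1 at 1.54 and Gly-CCC-1 at 1.96 missed the unadjusted threshold, as did Gly-TCC-2 at -0.75, Gly-GCC-3 at 0.08 and Gly-CCC-5 at 0.66. Of 16 isodecoders tested, edgeR called 0 (0% of the table), with 5 under an unadjusted p of 0.05 where 12.5% of all features were. DESeq2 called 2, Gly-TCC-1 (adjusted p = 0.00833) and Gly-GCC-2 (adjusted p = 0.0221), where it called 0.0859% of all features higher, with 6 under an unadjusted p of 0.05, and limma called 0, with 9.

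**Figure D5:**
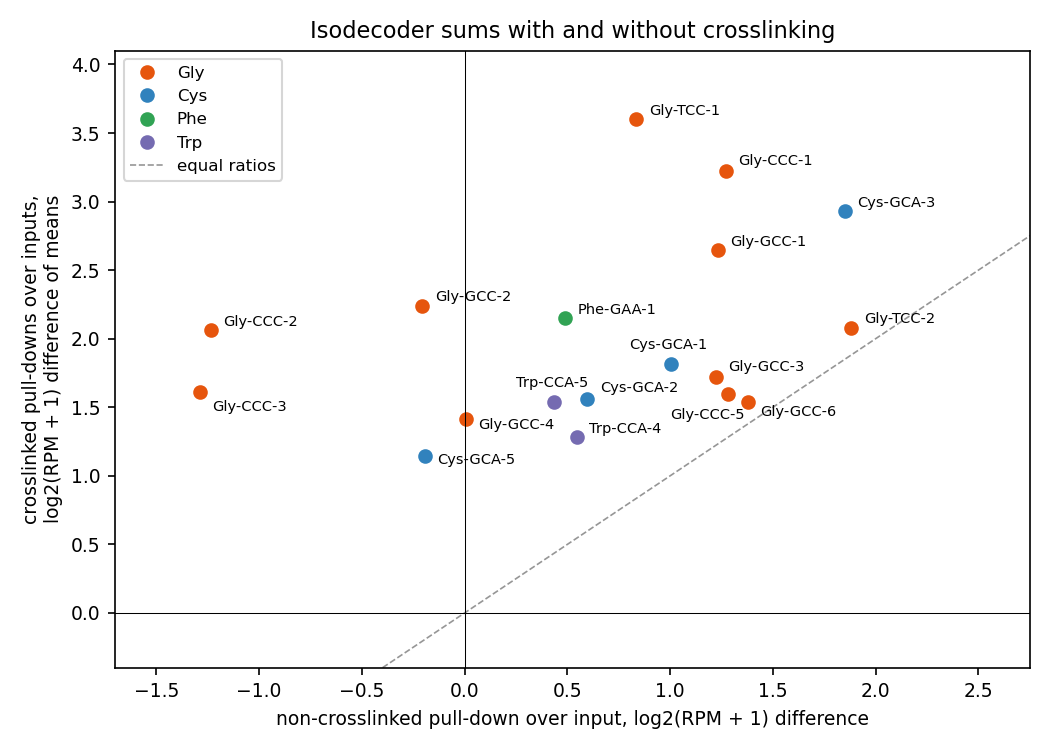
Log2(RPM + 1) difference of pull-down and input for isodecoder sums, without crosslinking (1 pair, horizontal) and with it (means of 2 libraries each, vertical); the dashed line marks equal ratios. Gly-CCC-2 and Gly-CCC-3 lie at -1.23 and -1.29 on the horizontal axis and above 1.5 on the vertical one, while Gly-TCC-2 lies close to the dashed line. Gly-GCC-6, at 1.38 and 1.54, lies near it on this scale because the pseudocount of 1 RPM exceeds its input levels; its edgeR difference was -4.15.

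The make-up of the isoacceptors shows this in shares. Gly-CCC-1 held 16.1% (11.5% to 22.1%) of the Gly-CCC reads of the no-UV input and 55.2% (47.3% to 62.7%) of those of the no-UV pull-down, against 60.0% and 62.2% in the UV inputs and 72.4% and 74.3% in the UV pull-downs. Gly-CCC-2 went the other way, from 51.5% (44.5% to 58.7%) to 19.5% (13.8% to 26.1%) without crosslinking, with 23.7% and 22.7% in the UV inputs. Gly-CCC-3 went from 31.7% (25.5% to 38.7%) to 9.44% (5.91% to 15.3%). The no-UV input thus stood apart from both UV inputs in its Gly-CCC make-up, and the no-UV ratios of these isodecoders rest on that library. Likewise, Gly-GCC-2 held 76.8% (73.2% to 80.0%) of Gly-GCC in the no-UV input, above the 63.0% and 54.6% of the UV inputs, the 53.5% and 52.5% of the UV pull-downs and the 54.7% (50.8% to 58.4%) of the no-UV pull-down.

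None of the tested genes that act on these tRNAs was called higher. Their pre-mRNA features were taken from 3 lists, and 3.47% of all tested features were called lower. Of the 11 listed synthetase names, 8 were found (the other 3 are newer names of the same genes) and 5 tested, with 0 called by edgeR and 3 under an unadjusted p of 0.05. Gars, which charges Gly tRNAs, had a log2 ratio of -0.54 (adjusted p = 0.124), Cars, for Cys, -0.54 (0.203), Farsa and Farsb, the subunits of the Phe enzyme, -0.40 (0.489) and -0.68 (0.108), and Wars, for Trp, -0.49 (0.494). DESeq2 called 0 of these 5 and limma called 1, Farsb, at an adjusted p of 0.0448. Of 16 modification genes, 14 were found and 4 tested, with 0 called by edgeR, DESeq2 or limma and 1, 1 and 2 under an unadjusted p of 0.05. Thada, which takes part in methylating the anticodon loop of Phe tRNA in a complex with a ribose methyltransferase, was at 31.8 and 24.7 RPM in the UV inputs and 17.9 and 11.7 RPM in the UV pull-downs (log2 ratio -0.84, adjusted p = 0.0947), and Nsun2, a tRNA cytosine methyltransferase, was at -0.39. Of 5 genes for tRNA ends, 3 were tested and 0 called by any of the 3 tools, with 2, 0 and 2 under an unadjusted p of 0.05, among them Trnt1, which adds the 3′ CCA, at -0.80 (adjusted p = 0.0959) and Elac2, which cuts the 3′ trailer, at -0.62. The medians of the 3 lists, -0.54, -0.41 and -0.62, stand beside -0.21 for all tested features.

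In the authors' deposited table, which gives 1 enrichment ratio for each of 216085 features, 80 of the 121 genes appear, all with a ratio above 1, as had 74.6% of all its features. How the authors' deposited table combined the libraries is not stated. Their median ratio in the authors' deposited table was 10.9, against 20.9 for all 322 tRNA genes listed there, and 14 stood among its 1000 highest ratios. By amino acid, the authors' deposited table gave a median of 37.1 for 6 Phe genes, 14.3 for 7 Trp genes, 13.7 for 27 Gly genes and 5.05 for 40 Cys genes. The Cys median is the value of 15 Cys-GCA-4 copies with identical counts, each with at most 0.380 read in any library. Of the 6 Phe genes, 5 are copies of Phe-GAA-1. These medians thus count copies that share reads and do not rank the amino acids. Among the Gly genes of the authors' deposited table, Gly-CCC-5-1 was the highest at 87.4 and Gly-GCC-4-1 the lowest at 7.15, the same extremes as in the edgeR ratios. The Cys genes were ordered differently. Cys-GCA-3-1, whose edgeR log2 ratio was 4.31, had the lowest Cys ratio in the authors' deposited table at 3.81, and Cys-GCA-3-2, with 4.34, had 4.06 there. Cys-GCA-5-1, which had the lowest edgeR ratio of the tested Cys genes and was not called here, had 13.5 in the authors' deposited table.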

How the data were processed

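Per the file contents, the authors deposited for each of the 6 libraries expected counts per feature, with reads that matched several features split into fractions, and an RPM value, the same count scaled to the library total, unannotated reads (6.99% to 14.4%) included. A further deposited table gives the authors' enrichment ratio per feature. The submitters' processing notes name bcl2fastq 2.19, STAR 2.5.2b, bedtools 2.29.0 and the build mm10, without their settings; removal of PCR duplicates is not given in the sources used here.

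Expected counts were rounded and tested two-sided with edgeR 4.0.16 (quasi-likelihood, R 4.3.3), UV (crosslinked) pull-downs against UV inputs, with annotated reads as library size, over those 39872 of 1753368 features that averaged 1 RPM or more. Benjamini-Hochberg adjustment ran over the whole table, at a threshold of 0.05. tRNA rows were summed per amino acid, isoacceptor or isodecoder before rounding. The split of reads reaches across groups: 8 of 9 isoacceptor sums and 49 of 50 isodecoder sums were not whole numbers (tolerance 0.01 read). The script was run on simulated counts, which were independent whole numbers with a fixed spread. That run checks the code alone and not the calls on these split reads. The spread of replicates exceeded counting error (chi-square over degrees of freedom 5.96 between UV inputs, 6.84 between UV pull-downs). Log2(RPM + 1) differences use a pseudocount of 1 and understate changes of low genes.

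Named genes were, by rule, the 3 most read per isoacceptor in the UV pull-downs and the highest and lowest ratios per amino acid; other genes and all isodecoders were named after their values were seen. The members and lists were chosen with earlier results of these data known. No tRNA sequences were at hand, and that isodecoder numbers mark equal sequences is the naming convention. Alternatives were other filters, scalings, tools (DESeq2 1.42.0, limma 3.58.1), pseudocounts, a replicate block and each UV library left out.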

Additional observations from a re-analysis of the deposited data

Results flagged for a closer look

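The sums below were higher in both UV pull-downs than in both UV inputs, while the level in the single no-UV pull-down was under that in the no-UV input. Gly-CCC had a no-UV log2(RPM + 1) ratio of -0.14, and edgeR gave its difference from the UV ratio an adjusted p of 0.300. Gly-CCC-2 was at -1.23 and Gly-CCC-3 at -1.29, each with an adjusted p of 0.302 for the difference. Gly-GCC-2 was at -0.21, also with an adjusted p of 0.302. Its gene copies 4, 5 and 7 were at -0.70, -0.69 and -0.70, while its other 5 copies were at 0.27 to 0.30, so the value below 0 rests on 3 of its 8 copies. Cys-GCA-5 was at -0.19, with an adjusted p of 0.627 for the difference. Its no-UV ratio of 0.614 had a 95% counting interval of 0.132 to 2.42, from 7.03 reads in the input and 4.07 in the pull-down, and UV pull-down 1, with 24.2 reads, was level in RPM with UV input 1, with 26.1 reads. None of these differences was called by edgeR after adjustment, and all but that of Cys-GCA-5 had an unadjusted p under 0.05. The no-UV side of each is 1 pair of libraries.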

How the results depend on the processing

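Of 800 single values recomputed under alternatives, 689 kept their direction and side of the threshold, 26 moved with the pseudocount, 9 gained and 41 lost a call, and 35 turned sign. With no filter on low values, 942601 features were tested and 0 were called, so that 0 of the genes, isoacceptors, amino acids and isodecoders were called, with 54, 6, 4 and 28 of them under an unadjusted p of 0.05. When the filter was raised to 5 RPM, all that were tested were called, 21 genes, 2 amino acids and 7 isodecoders. The highest mean UV input of any single gene was 2.80 RPM (Gly-TCC-1-1), so all 21 genes passed only through their pull-downs. So did the Cys sum (mean UV input 2.16 RPM), Gly-CCC-2 (2.01 RPM), Gly-GCC-4 (2.45 RPM) and Cys-GCA-3 (0.551 RPM). Their calls under this filter are a description. Genes called ranged from 27 to 36 and isodecoders from 12 to 18 when a UV library was left out, and isoacceptors with a share called from 0 to 2; DESeq2 called 2 shares and 2 of each interaction. The replicate block (the numbers are only numbers: r = 0.111 between same-numbered deviations, over 2 pairs) called 30 genes, 6 isoacceptors, 4 amino acids, 17 isodecoders and 1 share, the genes lost being Gly-GCC-4-1 and copies 4, 5 and 7 of Gly-GCC-2. The values that turned sign were shares and interactions. With TMM factors they were the shares of Cys-GCA (-0.28), Gly-CCC (-0.50), Gly-GCC (-1.20) and Trp-CCA (-0.31) and the interactions of Cys-GCA (-0.056), Trp-CCA (-0.27), Cys-GCA-1 (-0.38) and Gly-GCC-3 (-0.48). With limma they were the shares of Phe-GAA (-0.045) and Trp-CCA (-0.019) and the interactions of Cys-GCA-3 (1.08), Gly-GCC-6 (0.16) and Gly-TCC-2 (0.20). Scaled to tRNA reads, an alternative chosen after seeing the data (as were the isodecoder sums), which takes out the rise of all tRNAs by construction, the interactions of Cys-GCA (-2.32), Gly-GCC (-0.52), Phe-GAA (-0.14), Trp-CCA (-2.48), Cys-GCA-1 (-2.56), Cys-GCA-5 (-0.30), Gly-CCC-1 (-0.89), Gly-CCC-5 (-1.97), Gly-GCC-1 (-1.28), Gly-GCC-2 (-0.19), Gly-GCC-3 (-2.61), Gly-GCC-4 (-0.96), Phe-GAA-1 (-0.17) and Trp-CCA-5 (-1.14) turned, and Gly-GCC-6 was called at -8.03 (adjusted p = 0.0448) with less than 1 read in the no-UV input. Without Asp-GTC in the tRNA total the share of Gly-GCC was -0.24. With a UV library left out, the share of Gly-GCC ranged from -0.14 (without pull-down 1; -0.06 without input 2) to 0.25, and the interactions ranged from -0.16 (without pull-down 2) to 1.01 for Cys-GCA, from -0.29 (without input 2; -0.24 without pull-down 2) to 1.198 for Trp-CCA, and from -0.19 (without pull-down 2; -0.09 without input 1) to 0.31 for Gly-GCC-3. For the tools, TMM factors and left-out libraries the cause was not tested. Few reads limit the Cys, Phe and Trp genes.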
